A study of Mus musculus with 4 samples.

Results

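The astrocyte marker genes described here are 10 symbols chosen by name: Gfap, Aqp4, Slc1a2, Slc1a3, Aldh1l1, Apoe, Gja1, S100b, Glul and Aldoc. All 10 were found among the 21722 genes analysed, each as 1 row of the deposited tables. The cultures were dissociated hippocampal neurons from newborn pups (P0) of the outbred CD1 mouse strain, grown in Neurobasal medium with B27. There were 4 conditions with 1 library each, called here shRNA Bic/4AP, shRNA untreated, vector Bic/4AP and vector untreated. All 4 cultures received a lentivirus on day 4 in vitro, either one expressing a short hairpin RNA (shRNA) against the histone demethylase gene Kdm6b or the empty pLKO.1 vector, and were harvested on day 11. The Bic/4AP cultures had 4-aminopyridine at 2.5 mM and bicuculline at 50 µM (written µm in the labels and taken as micromolar) in the medium for 3 h. The labels name no restriction of the virus to a cell type, 1 hairpin was used, and the number of pups behind each culture is not stated. Without replicates nothing was tested, and each value describes a single library.

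Astrocytes are the glial cells that surround synapses and blood vessels. They take up released glutamate through the transporters encoded by Slc1a2 (GLT-1) and Slc1a3 (GLAST), turn it into glutamine with the synthetase encoded by Glul, carry water through Aqp4, are joined by gap junctions of Gja1 (connexin 43) and supply neurons with lipid on the carrier encoded by Apoe. Neuron cultures of newborn tissue usually hold astrocytes beside the neurons. Bicuculline is an antagonist of the GABA-A receptor and 4-aminopyridine closes potassium channels, and together they raise firing and glutamate release. The markers were followed across these conditions to describe the glia in cultures that are labelled as neurons.

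Levels are given as FPKM, fragments per kilobase of transcript scaled to library size, so genes can be set side by side. The relative depth of the libraries, taken from the width of the authors' bounds, lay between 0.932 and 1.04 of that of vector untreated. Kdm6b, the target of the hairpin, stood at 4.83 FPKM in shRNA Bic/4AP and 2.73 in shRNA untreated, against 13.1 in vector Bic/4AP and 6.74 in vector untreated. Fos, an immediate-early gene of firing, stood at 765 FPKM with Bic/4AP and 15.3 untreated in shRNA cultures, and at 771 and 12.5 in vector cultures.

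Astrocyte transcripts were among the most abundant in cultures labelled as neurons. Apoe, on chromosome 7 from 20281593 to 20284515 (mouse build mm9, as are all positions here), stood at 2019 FPKM in shRNA Bic/4AP, 1901 in shRNA untreated, 3321 in vector Bic/4AP and 2873 in vector untreated. It ranked 10th, 8th, 3rd and 3rd among the 21722 genes in that order of libraries. Gfap, which encodes the intermediate filament of astrocytes and lies on chromosome 11 from 102748650 to 102758514, stood at 1767, 1533, 1686 and 1514 FPKM in the same order, at ranks 14, 13, 15 and 14. These 2 genes held between 70.0% and 74.9% of the summed FPKM of the 10 markers. That sum was 5372 in shRNA Bic/4AP, 4902 in shRNA untreated, 6681 in vector Bic/4AP and 6041 in vector untreated, or 1.12%, 1.05%, 1.40% and 1.29% of the FPKM of all genes. Without Apoe, Aldoc and Glul the sum was 2724, 2403, 2645 and 2400.1 in the same order, and no longer lower in shRNA cultures.

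The uptake and metabolic genes formed the next tier. Aldoc, the brain-type glycolytic aldolase gene (chromosome 11 from 78137700 to 78140262), stood at 413 FPKM in shRNA Bic/4AP, 387 in shRNA untreated, 464 in vector Bic/4AP and 500.0 in vector untreated. Slc1a3 (chromosome 15 from 8584124 to 8660807) stood at 428, 362, 419 and 364 FPKM in the same order. Aldoc was thus the higher of the pair in 3 libraries and Slc1a3 in shRNA Bic/4AP. Glul (chromosome 1 from 155747075 to 155756844) stood at 215, 211, 251 and 268 FPKM. It was lower in both shRNA libraries than in both vector libraries.

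The channel genes followed. Aqp4 (chromosome 18 from 15547903 to 15562193) stood at 205, 196, 191 and 172 FPKM, again from shRNA Bic/4AP to vector untreated. Gja1 (chromosome 10 from 56097106 to 56110225) stood at 161, 156, 176 and 153 FPKM. Slc1a2 (chromosome 2 from 102498840 to 102630941), the only marker whose row joins 2 transcription start sites, stood at 74.6, 75.4, 103 and 125 FPKM. The mature transporter gene was therefore below its relative in every library, at a ratio of Slc1a2 to Slc1a3 of 0.174 in shRNA Bic/4AP, 0.208 in shRNA untreated, 0.247 in vector Bic/4AP and 0.343 in vector untreated.

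The lowest levels were those of S100b, which encodes a calcium-binding protein (chromosome 10 from 75716581 to 75724064), and Aldh1l1, a folate enzyme gene widely used to mark astrocytes (chromosome 6 from 90500842 to 90549165). S100b stood at 47.9, 40.2, 35.4 and 35.5 FPKM, and Aldh1l1 at 40.7, 40.6, 33.3 and 35.7. In 3 libraries the bounds of this pair overlapped, so their order was not resolved there. All other neighbours in the order of levels were apart in every library by the authors' bounds, which reflect error inside 1 library and leave out differences between cultures. The bounds of the 10 markers reached from 0.448% to 4.18% above the value.

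**Figure D1:**
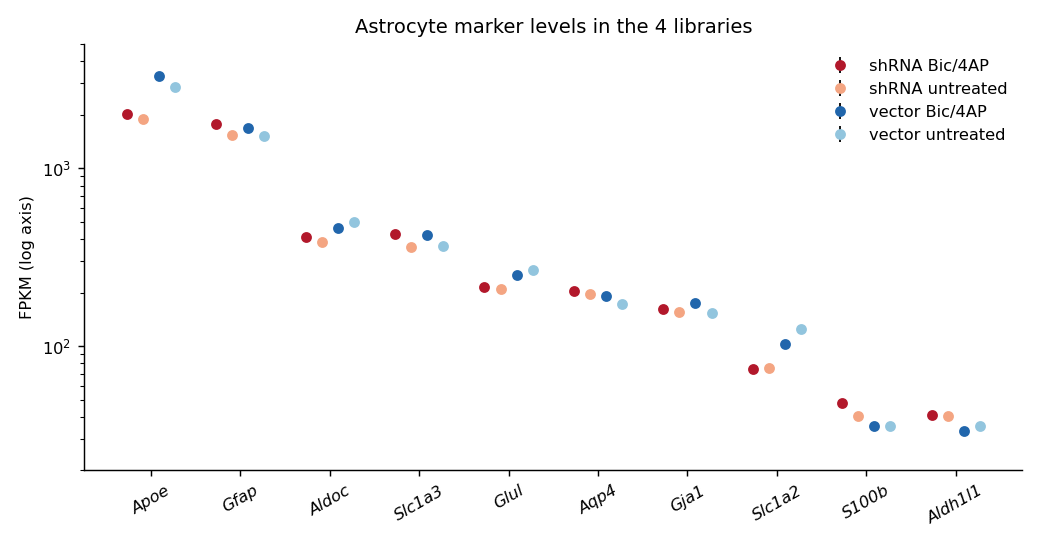
Level of the 10 astrocyte markers in FPKM (log axis), with 1 point per library and the authors' bounds as bars, most of them smaller than the point. Apoe and Slc1a2 are lower in both shRNA libraries (red) than in both vector libraries (blue), while Gfap and Slc1a3 are higher with Bic/4AP (dark) than untreated (light) in both backgrounds.

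Neuronal genes were abundant as well. The 16 neuron markers all stood above an FPKM of 1, and their sum was 3290 FPKM in shRNA Bic/4AP, 3108 in shRNA untreated, 3748 in vector Bic/4AP and 4107 in vector untreated. Stmn2, the neuron marker that differed most between shRNA and vector cultures, stood at 277, 288, 644 and 731 FPKM in the same order. Summed levels of the lists for other cell types were lower, though a sum depends on which and how many genes a list holds. The 15 microglia markers summed to 55.0, 50.9, 97.1 and 89.7 FPKM, and the 12 oligodendrocyte lineage markers to 123, 128, 148 and 145, with Sox10 at most 0.168. The 7 fibroblast markers summed to 45.7, 34.7, 60.0 and 43.9 FPKM. The 10 endothelial and mural markers summed to 58.3, 64.0, 80.8 and 70.9 FPKM, led by Acta2 at 50.7, 55.6, 73.8 and 63.6. Of these 10 markers 3 reached an FPKM of 1, and Cldn5, the tight junction gene of brain endothelium, stood at no more than 0.0349. The 6 ependymal and choroid plexus markers summed to 443, 431, 484 and 427 FPKM, led by Foxj1, the factor of ciliated cells, and Ttr, the transthyretin gene. In bulk RNA, fewer cells of a type and less RNA per cell cannot be told apart.

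**Figure D2:**
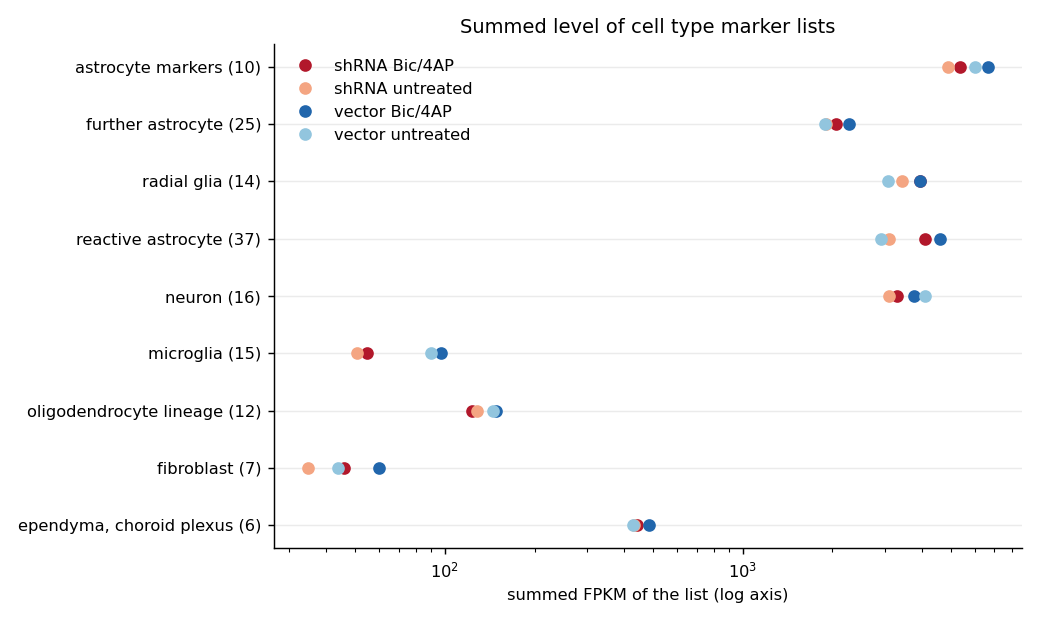
Summed FPKM (log axis) of each marker list, with the number of genes in brackets and 1 point per library. Sums of the 10 astrocyte markers and of neuron, microglia and oligodendrocyte lineage markers are lower in both shRNA libraries (red) than in both vector libraries (blue). Without Apoe, Aldoc and Glul the astrocyte sum is not lower (2724 against 2645 with Bic/4AP, 2403 against 2400.1 untreated). The radial glia sum is higher in shRNA libraries (3951 against 3933, and 3422 against 3074). That of further astrocyte genes is lower with Bic/4AP (2050 against 2273) but not untreated (1909 against 1890). The sum of reactive astrocyte genes is higher with Bic/4AP (dark) in both backgrounds.

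Further astrocyte genes showed which astrocyte programmes were present. Of 25 such genes in the tables, 23 had an FPKM of at least 1 in vector untreated. Mlc1, a membrane protein gene of astrocyte endfeet, stood at 685 FPKM in shRNA Bic/4AP, 650 in shRNA untreated, 629 in vector Bic/4AP and 516 in vector untreated, and the lipase gene Pla2g7 at 634, 580, 807 and 609. Kcnj10, the potassium channel of astrocytes, stood at 232, 223, 233 and 214 FPKM. Genes of immature astrocytes and radial glia were high too. Vim, an intermediate filament gene, stood at 2087, 1718, 2267 and 1543 FPKM, and Fabp7, a fatty acid binding protein gene of radial glia, at 827, 763, 692 and 661. In contrast, Gjb6 (connexin 30), a gap junction gene of mature astrocytes, stood at 0.181, 0.291, 0.689 and 1.01 FPKM, and the amino acid transporter gene Slc7a10 at no more than 0.947.

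The first comparison asked whether 3 h of Bic/4AP went with a different level of the markers in shRNA cultures. No marker differed by 1.5-fold on the scale of log2(FPKM + 1), against 6.74% of 13320 genes compared, of which 2.24% differed by 2-fold. S100b had the largest difference, 0.25, at 47.9 FPKM with Bic/4AP and 40.2 untreated. Slc1a3 (0.24) and Gfap (0.21) followed, and Slc1a2 (-0.016) was the only one below 0, a sign that turned under median-ratio scaling. The median of the 10 was 0.07, beside -0.08 over all genes. Bounds were apart for 7 markers, all higher with Bic/4AP, and 62.0% of the 2795 genes whose FPKM reached 30 in every library had bounds apart in either direction. The middle 90% of those 2795 genes lay between -0.30 and 0.37, and all 10 markers lay within that range.

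In vector cultures no marker differed by 1.5-fold with Bic/4AP either, against 8.71% of 13217 genes, of which 2.50% differed by 2-fold. Apoe (0.21), Slc1a3 (0.20), Gja1 (0.20), Gfap (0.16) and Aqp4 (0.15) were higher, and each had bounds apart. Slc1a2 was lower by the largest amount, -0.27, at 103 FPKM with Bic/4AP and 125 untreated. Aldoc (-0.11), Glul (-0.10) and Aldh1l1 (-0.10) were lower by less, also with bounds apart, while those of S100b overlapped. The count of 9 with bounds apart stands beside 67.3% of genes at that level. The median of the 10 was 0.07, beside -0.07 over all genes, and all 10 again lay within the middle 90% of genes at that level, from -0.38 to 0.44.

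The higher and lower markers in vector cultures did not follow a single role. The glutamate transporter genes lay on opposite sides, with Slc1a3 at 0.20 and Slc1a2 at -0.27. In shRNA cultures Apoe, Slc1a3, Gja1, Gfap and Aqp4 were again higher, with differences from 0.04 to 0.24, and Slc1a2, Aldoc, Glul and Aldh1l1 lay between -0.016 and 0.09, where the signs for Slc1a2, Aldh1l1 and Glul turned with the scaling.

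Other astrocyte genes differed more after the same 3 h. Of 37 genes listed as markers of reactive astrocytes, 34 were compared in shRNA cultures and 9 were at least 2-fold higher with Bic/4AP, against 2.08% of all genes. In vector cultures 35 were compared and 12 were 2-fold higher, against 2.22%. The list median was 0.25 in shRNA and 0.45 in vector cultures. Ptx3, which encodes a secreted pentraxin, stood at 119 FPKM with Bic/4AP and 24.0 untreated in shRNA cultures, and at 137 and 29.8 in vector cultures. Emp1, a membrane protein gene, stood at 141 and 44.9 in shRNA cultures and at 203 and 44.3 in vector cultures. Osmr, the oncostatin M receptor gene, differed by 1.34 in shRNA and 1.41 in vector cultures, and Timp1, a metalloproteinase inhibitor gene, by 1.36 and 1.47. Ptgs2, which neurons also induce with firing, had the largest difference of the list, 5.24 and 4.43. Lcn2, a secreted lipocalin gene of reactive astrocytes, differed by 0.25 and 0.27, close to Gfap. The reactive list was chosen with these data known, and many of its genes are expressed by other cells as well.

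Of 22 further astrocyte genes compared in shRNA cultures, 4 were at least 1.5-fold higher with Bic/4AP, against 4.23% of all genes, and of 23 in vector cultures 3 were, against 5.04%. The list medians were 0.05 in shRNA and 0.06 in vector cultures, with 7 and 10 genes below 0. Dio2, the deiodinase gene that makes active thyroid hormone, stood at 18.02 FPKM with Bic/4AP and 3.46 untreated in shRNA cultures, and at 14.8 and 3.43 in vector cultures. Sox9, a transcription factor gene of astrocytes, stood at 73.3 and 42.6 in shRNA cultures and at 69.0 and 39.1 in vector cultures. F3, the tissue factor gene, stood at 43.0 and 27.8 in shRNA cultures and at 71.3 and 35.1 in vector cultures. Of 15 astrocyte transcription factor genes, 3 in shRNA and 4 in vector cultures were 1.5-fold higher, against 4.23% and 5.04% of all genes, Sox9 and Emx2 among them in both. The list medians were -0.07 and -0.01, with 9 and 8 genes below 0, and Id4 was lowest, at -0.52 and -0.44. Radial glia genes had a median of 0.12 in shRNA and 0.32 in vector cultures, with Vim at 0.28 and 0.55. Secreted factor genes that act on synapses had medians of 0.095 and 0.29, with the thrombospondin gene Thbs1 at 0.21 and 0.50, and Sparc, which encodes a matrix protein, at 0.19 and 0.36. Uptake and buffering genes had medians of -0.03 and 0.04, and Slc6a11, a GABA transporter gene of astrocytes, differed by -0.53 and -0.47.

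**Figure D3:**
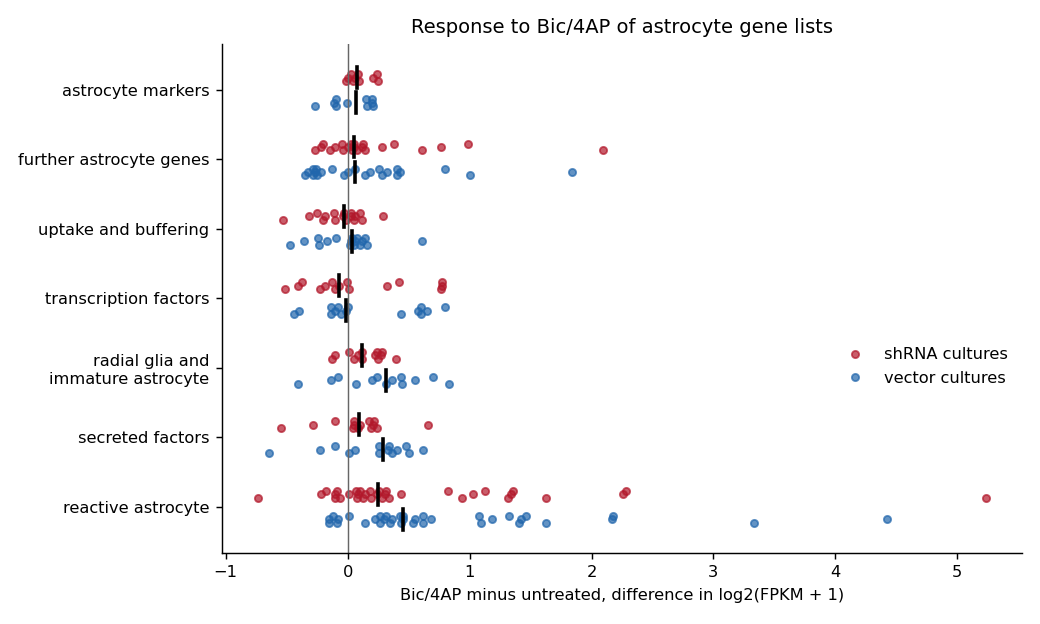
Difference in log2(FPKM + 1) between Bic/4AP and untreated cultures for each gene of 7 astrocyte lists, in shRNA (red) and vector (blue) cultures, with black bars at the list medians. The 10 markers lie between -0.27 and 0.25, whereas the reactive list reaches 5.24.

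The next comparison asked whether the hairpin went with a different level of the markers during Bic/4AP. Apoe was lower, at 2019 FPKM in shRNA and 3321 in vector cultures, a difference of -0.72 and the only one past 1.5-fold. Over all 13240 genes, 3.86% differed by 1.5-fold, 2.14% being lower and 1.72% higher, and 0.725% differed by 2-fold. Slc1a2 was next, at 74.6 FPKM in shRNA and 103 in vector cultures (-0.47). On the other side stood S100b, at 47.9 and 35.4 FPKM (0.42), and Aldh1l1, at 40.7 and 33.3 (0.28). Gfap (0.07) and Slc1a3 (0.03) were close to 0, and the sign for Slc1a3 turned under median-ratio scaling. Bounds were apart for all 10 markers, 5 higher and 5 lower, beside 63.8% of genes at that level. Apoe, Slc1a2 and S100b lay outside the middle 90% of those genes, which ran from -0.33 to 0.33. The median of the 10 was -0.05, beside 0.03 over all genes.

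Without Bic/4AP the same pair was lowest with the hairpin. Slc1a2 stood at 75.4 FPKM in shRNA and 125 in vector cultures (-0.72), and Apoe at 1901 and 2873 (-0.60), which placed both past 1.5-fold lower, against 2.93% of 13295 genes. In either direction 5.66% of genes differed by 1.5-fold and 1.08% by 2-fold. Aldoc, at 387 and 500.0 FPKM (-0.37), and Glul, at 211 and 268 (-0.34), were lower by less. Aqp4 (0.19), Aldh1l1 (0.18) and S100b (0.17) were higher, and no marker reached 1.5-fold higher, against 2.74% of genes. Gfap, at 1533 and 1514 FPKM, Gja1, at 156 and 153, and Slc1a3, at 362 and 364, differed by 0.03 or less in size on the log2 scale, and the signs for Gfap and Gja1 turned under median-ratio scaling. Bounds were apart for 8 markers, 4 higher and 4 lower, beside 66.5% of genes at that level. The median of the 10 was 0.0043, beside 0.05 over all genes. The markers thus did not differ as a block: Apoe and Slc1a2 were lower in both shRNA libraries while Gfap, the most abundant gene of the rest, differed by 0.07 with Bic/4AP and 0.02 untreated.

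**Figure D4:**
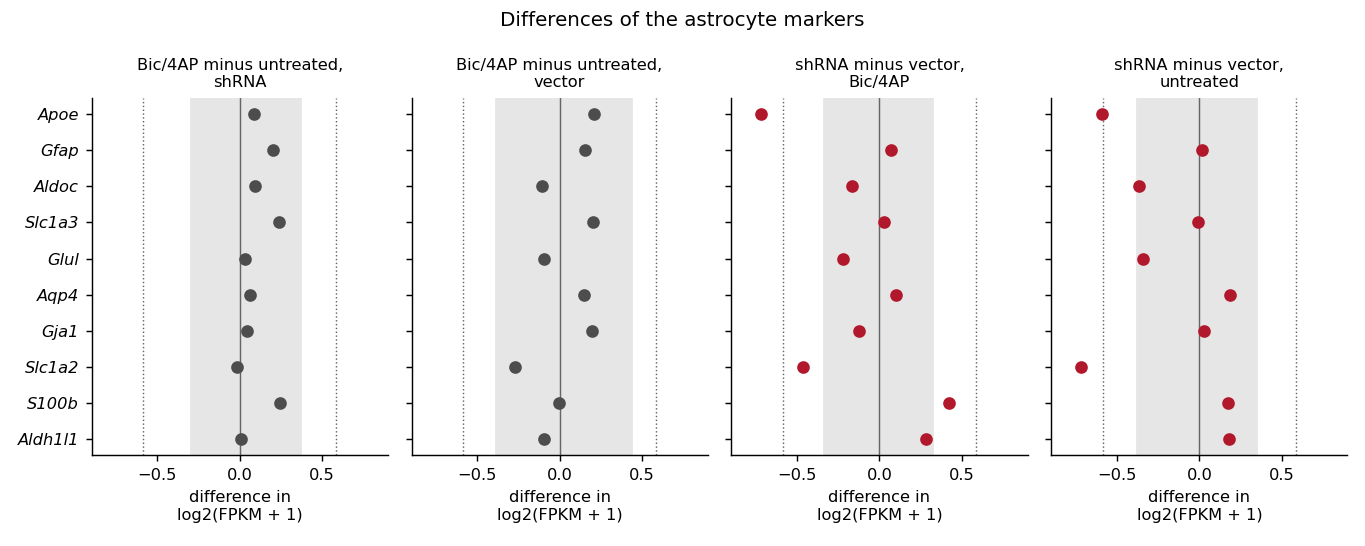
Difference in log2(FPKM + 1) of each marker in the 4 comparisons, with dotted lines at 1.5-fold and grey bands for the middle 90% of 2795 genes whose FPKM reached 30 in every library. For Bic/4AP minus untreated all points lie in the band, and for shRNA minus vector Apoe and Slc1a2 lie below it in both panels.

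Markers of other cells differed between shRNA and vector cultures too. Apoe is also made by microglia, whose markers had a median difference of -0.86 with Bic/4AP and -0.48 untreated among 12 of 15 that could be compared. Tyrobp was the lowest, at -1.41 and -1.46, and P2ry12 the highest, at 0.10 and 0.24. Of the 12, 8 with Bic/4AP and 5 untreated were at least 1.5-fold lower, against 2.14% and 2.93% of all genes. Levels in this list were low, at most 27.8 FPKM. Slc1a2 is also transcribed by some hippocampal neurons, and all 16 neuron markers lay below 0 in the untreated comparison (median -0.27), against 9 of 16 with Bic/4AP (median -0.05). Oligodendrocyte lineage genes, which include cells that express Glul, had medians of -0.43 and -0.41. The part of these cell types in the differences of Apoe, Slc1a2 and Glul was not tested.

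Of the further astrocyte genes, 4 of 22 were at least 1.5-fold lower with the hairpin during Bic/4AP and 4 of 23 untreated, against 2.14% and 2.93% of all genes. None was 1.5-fold higher, against 1.72% and 2.74%. Ntsr2, a neurotensin receptor gene of astrocytes, stood at 5.53 FPKM in shRNA and 12.1 in vector cultures with Bic/4AP, and at 5.28 and 14.9 untreated. Cldn10, a claudin gene, differed by -0.62 with Bic/4AP and by -1.03 untreated, at 11.5 FPKM in shRNA and 24.5 in vector cultures untreated. Among the uptake and buffering genes, the GABA transporter gene Slc6a11 (-0.73 with Bic/4AP and -0.66 untreated) and the GABA transaminase gene Abat (-0.70 and -0.63) were 1.5-fold lower in each state. Slc38a3, a glutamine transporter gene, was higher, at 0.56 and 0.91. Of the 15 transcription factor genes, Nfib was 1.5-fold higher in both (0.61 and 0.66), against 1.72% and 2.74% of all genes, and none was 1.5-fold lower, against 2.14% and 2.93%, shares at which a list of this size would hold few or no such genes. Radial glia genes had medians of 0.09 and 0.20, beside 0.03 and 0.05 over all genes, with Fabp7 at 0.26 and 0.21. In the untreated comparison 12 of 13 lay above 0, and none of the 13 differed by 1.5-fold in either state. The reactive list had medians of -0.21 and -0.05, and its complement gene C3 stood at -1.09 and -0.74.

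Small RNAs such as the product of a hairpin can lower transcripts whose 3′ UTR pairs with their seed, bases 2 to 8, so the 3′ UTRs of the markers were searched for words of 7 bases (transcripts of GENCODE mouse release M21 on build GRCm38, the longest annotated 3′ UTR of each gene). The target of the hairpin, as the labels print it, and its reverse complement are shown with bases 2 to 8 in capitals, since either strand could give the seed.
Hairpin target: cTGTTCTTgagggacaaactc
Reverse complement: gAGTTTGTccctcaagaacag
The word that would pair with the reverse complement, ACAAACT, was present in 4 markers, Aqp4, Slc1a2, Aldh1l1 and S100b, of which only Slc1a2 was lower with the hairpin. Over 11045 expressed genes with a 3′ UTR, 13.9% held it, and the median untreated difference was 0.03 with and 0.04 without the word. Of 105 further genes of the astrocyte lists 21 held ACAAACT, and their median difference was -0.013 during Bic/4AP and -0.11 untreated, beside -0.09 and 0.08 in the 84 without it, so the order of the medians differed between the states. They ranged in the untreated comparison from Cbs, at -0.87, to Nfib, at 0.66. The word for the sense strand, AAGAACA, was present in Slc1a2 and Apoe and in 20.4% of genes, and the medians were 0.04 both with and without it.

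A scan of all words then asked which one went with the lowest levels in shRNA cultures, with the 10 markers left out. Of 14409 words found in at least 200 of 11035 genes, ACAAGTG had the lowest mean over both hairpin comparisons, -0.099 in the 1443 genes with the word and 0.04 in the others. ACAAGTG is not the word of either hairpin seed. It was present in Apoe and Slc1a2 and in no other marker, at positions 265 to 271 of a 3′ UTR of 271 nt in Apoe (chromosome 7) and at positions 2955 to 2961 of 9250 nt in Slc1a2 (chromosome 2). The sites are shown with up to 10 bases on each side and the word in capitals, because Apoe and Slc1a2 were the lowest markers with the hairpin. Aldoc and Glul, which were lower by less in both states, do not hold the word, and the sense strand word AAGAACA is in the same pair of markers.
Apoe: acataaaagaACAAGTG
Slc1a2: gaaaaaacaaACAAGTGagcagacgtt
In Apoe it overlaps the sense strand word AAGAACA, which starts at position 261. There the word is the very end of the annotated transcript, and 1 of 6 annotated transcripts with a 3′ UTR holds it. In Slc1a2 1 of 5 does.

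Over the 11045 expressed genes with a 3′ UTR, 13.1% held ACAAGTG. The word was held by 3.98% of those with a 3′ UTR of up to 1000 nt, the class of Apoe, and by 18.4% of those with a longer one. The longer class includes Slc1a2, whose 9250 nt lie far above its lower limit. ACAAGTG was picked because genes with it lay lowest against genes without it over both hairpin comparisons. Lower hairpin values in genes with the word follow from that choice. They are a description and no support for the word, and the shares and medians given here count the markers too. During Bic/4AP, 5.81% of genes with the word were at least 1.5-fold lower in shRNA cultures and 1.5% of genes without it. Untreated, the shares were 6.78% with and 2.31% without. The median differences were -0.07 with and 0.04 without the word during Bic/4AP, and -0.06 and 0.06 untreated. For Bic/4AP minus untreated the medians were -0.09 with and -0.08 without the word in shRNA cultures, and -0.07 in both sets in vector cultures. Among 105 further genes of the astrocyte lists, 10 held it. Ntsr2 and Cldn10 were the lowest of these, Osmr (-0.55 during Bic/4AP and -0.49 untreated) and S1pr3 (-0.35 and -0.17) were lower too, and Dio2 (0.27 and 0.01), Zbtb20 (0.37 and 0.18) and Gys1 (0.23 and 0.17) were higher, while Stat3, Cp and Megf10 differed in sign. The median untreated difference of the 10 was 0.05, beside 0.02 in the 95 without the word, so as a group these genes were not lower untreated. The word was picked from the hairpin differences of other genes in these same 4 libraries, so its match to Apoe and Slc1a2 is a description and its part in their levels was not tested.

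**Figure D5:**
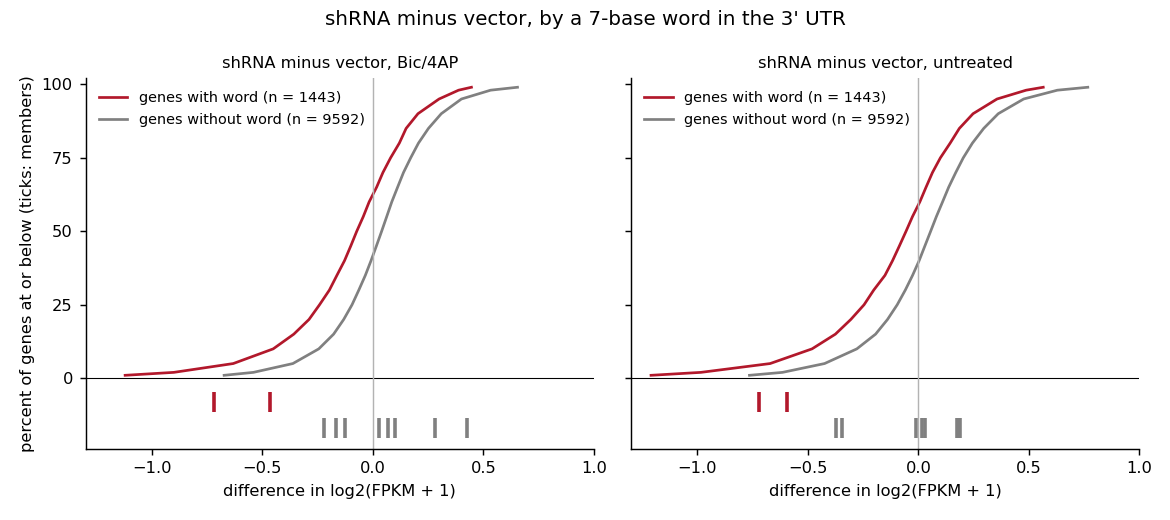
Percent of genes at or below each difference in log2(FPKM + 1) between shRNA and vector cultures, for genes with (red) and without (grey) the 7-base word in the 3′ UTR, markers left out of the curves. The word was picked from these same differences, so the gap between the curves follows from that choice. Ticks under the curves are the 10 markers, with Apoe and Slc1a2 in red at the left of each panel.

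The last comparison set the Bic/4AP response of shRNA cultures against that of vector cultures, using all 4 libraries. No marker differed by 1.5-fold in response, against 1.25% of 13458 genes, of which 0.238% differed by 2-fold. Slc1a2 (0.25) and S100b (0.25) had the largest positive differences and Gja1 (-0.16) the largest negative one. For Slc1a2 the response was -0.016 in shRNA and -0.27 in vector cultures. For S100b the response was 0.25 in shRNA and -0.0041 in vector cultures. The reactive list lay lower in shRNA cultures, with 28 of 35 genes below 0 and a median of -0.18, beside -0.02 over all genes. It was not alone in this. Medians were -0.15 for radial glia genes, -0.13 for secreted factor genes and -0.06 for both uptake and transcription factor genes. They were -0.03 for further astrocyte genes and 0.08 for the 10 markers. The lowest members of the reactive list were Iigp1 (-1.08) and Cxcl10 (-1.06), both interferon-inducible genes. Both were already higher in shRNA untreated than in vector untreated, at 13.7 and 4.48 FPKM for Iigp1 and 12.9 and 3.99 for Cxcl10.

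The genes with the profile most like that of Gfap were sought among 9211 genes whose FPKM reached 5 in every library, by Euclidean distance over the 3 differences from vector untreated. The 5 nearest were Preb, Acot2, Alkbh1, Mtmr11 and Dok6, at distances from 0.039 to 0.042. Of the other markers Slc1a3 was nearest, at 0.056 and place 14 of 9210, followed by Gja1 (0.16) and Aqp4 (0.17). Apoe (0.96) and Slc1a2 (1.29) were the farthest markers. With 4 libraries, 114 genes lay within 0.1 of Gfap.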

How the data were processed

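PolyA RNA was sequenced from 4 cultures with the Illumina TruSeq kit, per the labels' protocols. CASAVA 1.8, TopHat2 2.0.8b, Cufflinks 2.0.2 and build mm9 are named in the submitters' processing notes, without their roles; the annotation is not given in the sources used here. The deposited tables hold FPKM and its bounds for 22878 rows, per the file headers. FPKM were used unscaled. Rows of a symbol were summed. Symbols with a failed row in any library (42) and 728 small RNA symbols were left out. Start positions were counted from 1.

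Differences were taken in log2(FPKM + 1), with a pseudocount of 1, for genes whose FPKM reached 1 in a compared library, in Python 3.11.15 with pandas 2.3.3. Differences of 2-fold and 1.5-fold were counted. Total counts are not in these tables; the bounds set the precision. The code for the differences was checked on simulated data, which is no test of the differences themselves. Alternatives were pseudocounts (0.1 and 5), filters (none, or a minimum FPKM of 5), 3 scalings (median-ratio, upper-quartile and common-sum), small RNAs kept, and the highest row of a symbol. The 10 markers and all gene lists were chosen with earlier results of these data known. The level band at an FPKM of at least 30 and the word scan were added after the data were seen. The 10 markers, the extreme members of lists, the 5 genes nearest Gfap, and Kdm6b and Fos were named by rule, and other genes after their values were seen. For the scan, 11045 of 12650 expressed genes (87.3%) had a 3′ UTR of at least 50 nt under the same symbol.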

Additional observations from a re-analysis of the deposited data

Results flagged for a closer look

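Aldoc was higher with Bic/4AP in shRNA cultures (0.0948 in log2(FPKM + 1), 413 FPKM against 387 untreated) and lower in vector cultures (-0.1083, 464 FPKM against 500.0 untreated). It was the only marker whose Bic/4AP differences pointed in opposite directions with bounds apart in both backgrounds. With 1 library per condition the difference between the backgrounds was not tested.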

How the results depend on the processing

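Over 9 alternatives, no marker's difference moved by 0.1 or more on the log2 scale, a limit set after the data were seen, and the calls past 1.5-fold (Apoe in both states, Slc1a2 untreated) were made under all 9. The marker medians moved by less than 0.1 as well. Signs of small differences turned under scaling for S100b (Bic/4AP, vector), Slc1a2, Aldh1l1 and Glul (Bic/4AP, shRNA), Gfap and Gja1 (hairpin, untreated) and Slc1a3 (hairpin, Bic/4AP). Counts over all genes depended on the pseudocount. Past 2-fold, 330 genes in vector Bic/4AP minus untreated became 524 at 0.1 and 171 at 5; 298 in shRNA became 458 and 161; 144 for shRNA minus vector untreated became 298 and 43; 96 during Bic/4AP became 220 and 30; and 32 for the difference of responses became 80 and 11. Past 1.5-fold, 1151 became 514 at 5 and 898 became 412; 753 became 1254 at 0.1 and 254 at 5; 511 became 923 and 179; and 168 became 387 and 52, or 111 with an FPKM of at least 5. With small RNA genes kept, the 2-fold counts were 277 (untreated), 212 (Bic/4AP) and 209 (responses), and the last had 366 past 1.5-fold. Without Apoe, Aldoc and Glul the marker sum was 2724 in shRNA Bic/4AP, 2403 in shRNA untreated, 2645 in vector Bic/4AP and 2400.1 in vector untreated. No paired analysis was possible because each condition had 1 library.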
